A study of Mus musculus with 35 samples.

Results

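Matricellular proteins are secreted into the extracellular matrix, where they act on cell surface receptors and growth factors rather than serve as structural scaffold. The 10 genes described here encode 2 CCN proteins (Cyr61, also named Ccn1, and Ctgf, also named Ccn2), 3 thrombospondins (Thbs1, Thbs2 and Thbs4), the secreted protease Adamts1, Sparc and its relative Sparcl1, tenascin C (Tnc) and osteopontin (Spp1). They were taken by symbol from the 43629 gene identifiers in the table of mRNA counts, and all 10 were found and passed the filter on low counts at every time. In the brain, thrombospondins and Sparcl1 are known as astrocyte proteins that promote synapse formation, Sparc counteracts Sparcl1, and tenascin C and osteopontin are known for their part in tissue injury. Cyr61 and Ctgf are known in many cell types as genes that respond within minutes to hours to growth factors and stretch.

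Polyadenylated RNA was measured in the left hippocampus of 19 wild type C57BL/6J mice, male and female and 6 to 7 weeks old, after status epilepticus (SE), a state of prolonged seizures. SE mice received pilocarpine by intraperitoneal injection, at 350 mg/kg by the sample labels, and the control mice received saline vehicle. All mice were given scopolamine beforehand. Pilocarpine was repeated until a mouse had lasting seizures of stage 3 (partial body clonus or head bobbing) or above, so the SE mice were chosen by their response. Tissue was taken 1 h (3 SE and 2 control mice) and 8 h (2 SE and 3 control mice) after the start of seizures. It was taken likewise at 36 h (3 SE mice) and 120 h (3 SE mice), and these SE mice share 3 control mice. By the paper SE usually lasted 1 h or more, so the words after SE mean here after its start.

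Libraries held 8503816 to 28465548 counts, both ends of that range being SE libraries of 8 h. Levels are given as CPM, counts scaled to the library size and to the TMM factors of all 19 libraries. Fold changes come from edgeR's quasi-likelihood test on the libraries of one time, with the standard error of the log2 fold change (SE is kept for status epilepticus). Markers of choroid plexus epithelium, a tissue that adjoins the hippocampus, were unevenly present. Their mean log2 CPM at 1 h was 6.02, 5.51 and 5.66 in SE libraries and 5.54 and 5.02 in controls. At 8 h the mean was 5.23 and 5.14 in SE libraries and 2.99, 5.41 and 3.61 in controls. At 36 h it was 5.20 and 5.11 in SE replicates 1 and 2 and 0.10 in SE replicate 3, and at 120 h it was 5.33 in SE replicate 3 and 0.36 and 0.49 in the other SE libraries, against 0.27 to 0.57 in their controls. In 2 of the 19 libraries, control replicate 2 of 1 h and control replicate 3 of 36 h and 120 h, the counts of Xist and Ddx3y went against the listed sex of the mouse. At 36 h, 0 of the 3 SE libraries and 2 of the 3 controls had more Xist than Ddx3y counts.

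At 1 h, 3 of the 10 genes rose at an adjusted p under 0.05, namely Cyr61, Thbs1 and Adamts1, and 0 fell. Of all 16264 genes tested at that time, 0.0799% were called, each of them higher. None of the 10 passed the quasi-likelihood test at the later times, when 0.0% (8 h), 0.0252% (36 h) and 0.0563% (120 h) of all genes were called. With no adjustment, 5 of the 10 had a p under 0.05 at 1 h (4.39% of all genes did), 3 at 8 h (9.47%), 3 at 36 h (7.89%) and 0 at 120 h (9.6%). DESeq2 called 3, 1, 1 and 0 of them at these times, adding Thbs4 at 8 h and Tnc at 36 h. Over all genes it called 63 of 16264, 95 of 15610, 101 of 15850 and 144 of 15996. At 120 h it gave no adjusted p for Cyr61, Thbs1, Thbs2 and Spp1.

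**Figure D1:**
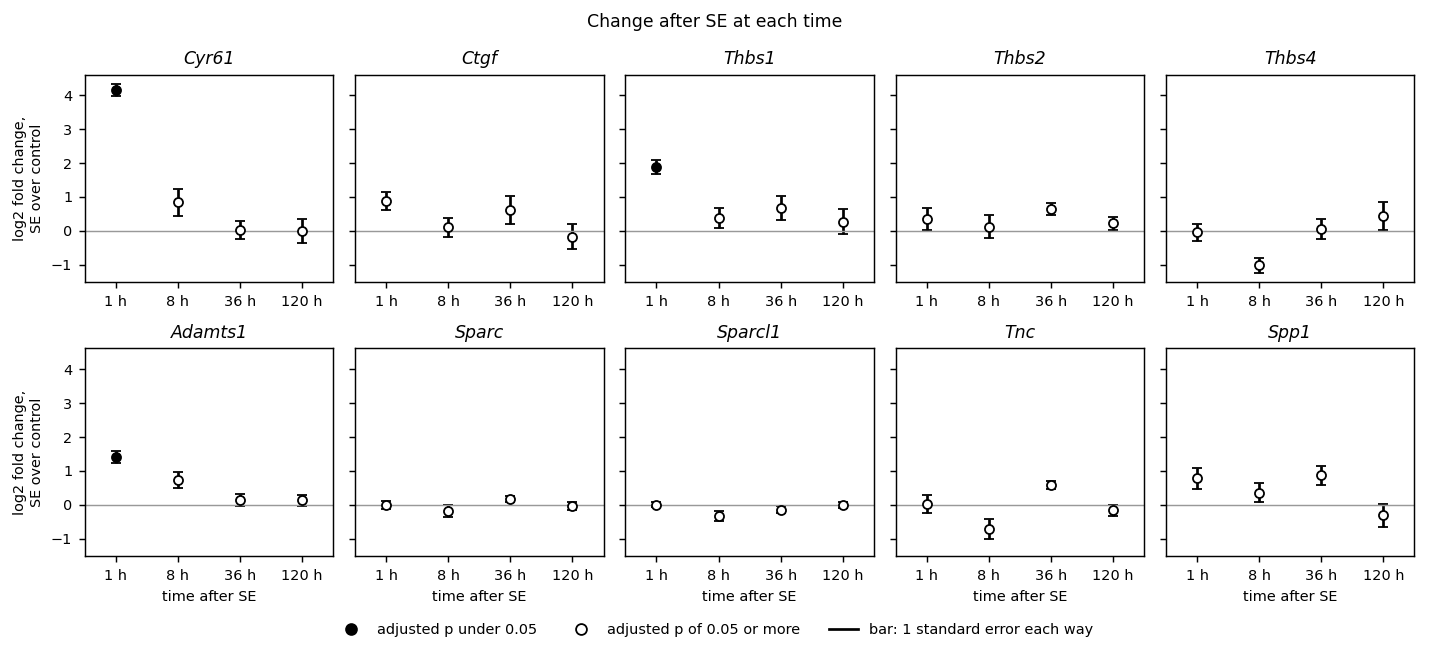
Log2 fold change of SE over control for each gene at the 4 times, with bars of 1 standard error each way; filled points have an adjusted p under 0.05. The filled points are Cyr61 (4.16), Thbs1 (1.89) and Adamts1 (1.40) at 1 h, and all other points are open.

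Promoter sequences were looked up for the genes that rose at 1 h. RefSeq promoters of build GRCm38.p6 were at hand for 7 of the 10 genes, including Cyr61 and Adamts1 but not Thbs1. The 250 bases upstream of the start are shown for Cyr61 and Adamts1 because these genes rose together. Capitals mark matches to any of 7 motifs searched on both strands. They were the TEAD motif, with the letters GGAATG, and the TATA box, with the letters TATAAA. The cAMP response element was searched whole, as TGACGTCA, and by its core TGACG, which the whole element contains. The EGR motif was GCGGGGGCG. The AP-1 motif was TGANTCA, and the CArG box of serum response factor was searched likewise. The first sequence is chr3:145649986-145650235 and the second chr16:85803114-85803363, both on the minus strand and written 5′ to 3′.
Cyr61: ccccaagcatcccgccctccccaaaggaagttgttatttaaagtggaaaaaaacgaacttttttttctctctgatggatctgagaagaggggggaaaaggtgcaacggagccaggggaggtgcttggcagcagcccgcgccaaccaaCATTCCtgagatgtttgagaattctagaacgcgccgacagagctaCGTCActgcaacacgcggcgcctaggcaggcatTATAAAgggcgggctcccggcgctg
Adamts1: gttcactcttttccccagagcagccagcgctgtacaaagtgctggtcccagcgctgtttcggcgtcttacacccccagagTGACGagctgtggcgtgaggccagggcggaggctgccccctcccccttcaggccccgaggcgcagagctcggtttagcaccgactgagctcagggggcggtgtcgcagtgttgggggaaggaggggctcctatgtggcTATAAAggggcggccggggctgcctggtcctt

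In Cyr61 a reverse-strand TEAD motif lay 103 to 98 bases before the start, a reverse-strand cAMP element core 58 to 54 bases before it and a TATA box 25 to 20 bases before it. In Adamts1 a core lay 170 to 166 bases and a TATA box 32 to 27 bases before the start. Of 32851 promoters of that length, 12.6% hold the TEAD motif, 17.8% the core and 12.4% the TATA letters, so matches somewhere in the window are common. These shares count a match at any place and on either strand, so they give no rate for a TATA box close to the start. Among the other genes looked up, none of them called at 1 h, Thbs2, Tnc and Spp1 held the TATA letters and Thbs4 the TEAD motif. The TATA letters lay further from the start there than in Cyr61 and Adamts1. They were 126 to 121 bases before it in Thbs2 (reverse strand) and 211 to 206 in Spp1. In Tnc they were 126 to 121 or 205 to 200 bases before it, by the start used. Tnc also held the EGR motif, 171 to 163 or 250 to 242 bases before the start, by the start used. Sparc held no motif, and the core was in none of these other genes. The AP-1 motif (6.75% of promoters), the whole cAMP response element (1.55%), the EGR motif (2.57%) and the CArG box (1.47%) had no match in the windows of Cyr61 and Adamts1.

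Cyr61 showed the largest log2 fold change of the 10 genes. It encodes a CCN protein that binds integrins and heparan sulfate (ENSMUSG00000028195, chromosome 3 from 145309935 to 145312949 of NCBIM37, minus strand). At 1 h Cyr61 had 56.0, 68.7 and 63.4 CPM in the SE mice, against 3.58 and 3.43 CPM in the controls. All 3 SE mice stood far above both controls and the spread within each group was small. The log2 fold change was 4.16, with a standard error of 0.18 and an adjusted p of 7.56e-05, about 17.8-fold. Within the batches that the labels give, the log2 ratio of mean CPM was 4.18 in batch G369 (2 SE mice and 1 control) and 4.15 in batch G511 (1 of each).

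At 8 h Cyr61 had 3.29 and 3.91 CPM after SE, against 2.18, 2.14 and 1.66 CPM in controls. The groups did not overlap, but the log2 fold change of 0.84 ± 0.39 did not pass the test (adjusted p = 0.547). In the SE mice Cyr61 had 4.52, 3.73 and 5.15 CPM at 36 h and 4.77, 5.97 and 2.37 CPM at 120 h, against 6.23, 3.91 and 3.20 CPM in the shared controls. SE and control mice were mixed at both times, with log2 fold changes of 0.02 ± 0.27 and -0.01 ± 0.35. The SE effect at 8 h was smaller than at 1 h (-3.29 ± 0.46 on the log2 scale), a contrast of both times in 1 model of 7 groups (adjusted p = 0.0065). Of all 17415 genes in that contrast, 0.149% were called, and Cyr61 was the only one of the 10 genes called. Without SE replicate 1 of 8 h, the shallowest library, the adjusted p of this contrast was 0.0927 and its value -3.20.

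**Figure D2:**
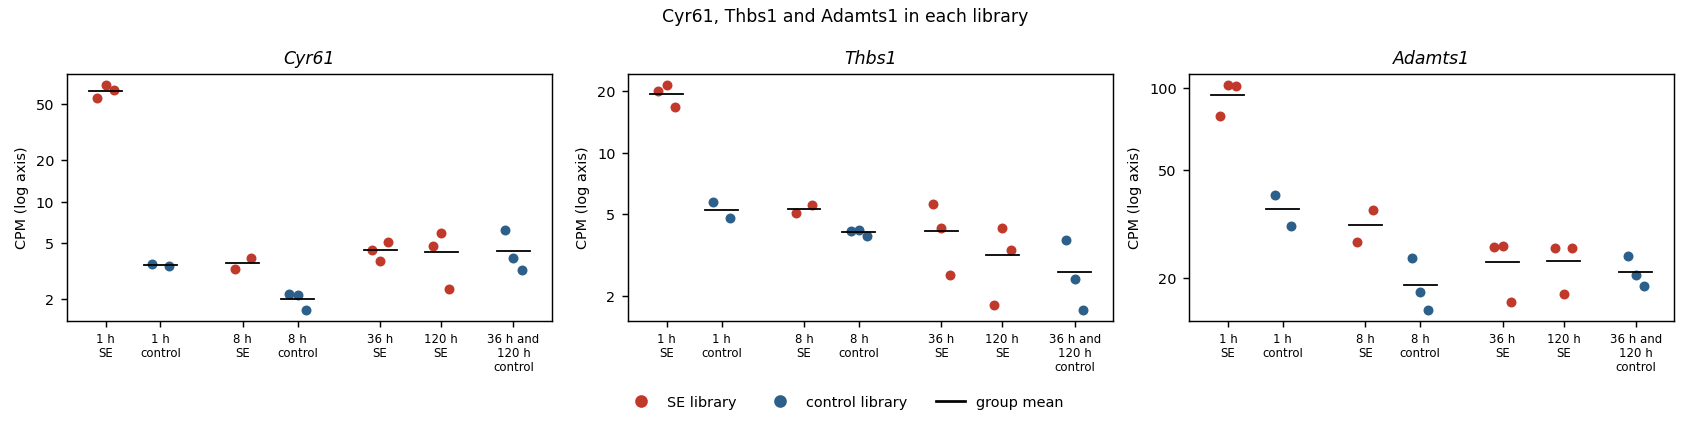
CPM of Cyr61, Thbs1 and Adamts1 in each library, on log axes, with SE libraries in red, control libraries in blue and group means as bars. At 1 h every SE library lies above both controls (for Cyr61 56.0 to 68.7 against 3.43 to 3.58 CPM), and from 36 h on the groups overlap.

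Thbs1 encodes thrombospondin 1, a glycoprotein that activates latent TGF-beta and is released by platelets, endothelium and glia (ENSMUSG00000040152, chromosome 2 from 117937612 to 117952869, plus strand). At 1 h Thbs1 had 20.1, 21.3 and 16.7 CPM after SE, against 5.71 and 4.79 CPM in controls. Every SE mouse was above every control. Its log2 fold change was 1.89 ± 0.21 (adjusted p = 0.0274), about 3.70-fold, with log2 ratios of 2.11 and 1.55 within batches G369 and G511.

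At 8 h Thbs1 had 5.05 and 5.57 CPM after SE and 4.15, 4.19 and 3.91 CPM in controls, without overlap, and a log2 fold change of 0.37 ± 0.30 (adjusted p = 0.696). The difference between its effects at 8 h and 1 h was -1.50 ± 0.49 (adjusted p = 0.224), and it passed without the filter on low counts (-1.51, adjusted p = 0.0295). Without the filter that contrast called 480 of 27279 genes, against 26 of 17415 with it. At 36 h the SE mice had 5.62, 4.27 and 2.52 CPM and at 120 h 1.81, 4.27 and 3.35 CPM, against 3.75, 2.41 and 1.70 CPM in the shared controls. These groups overlapped at both times.

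Adamts1 encodes a secreted metalloprotease that cleaves the proteoglycans aggrecan and versican (ENSMUSG00000022893, chromosome 16 from 85794072 to 85803358 of NCBIM37, minus strand). At 1 h Adamts1 had 79.0, 103 and 102 CPM after SE, against 40.5 and 31.1 CPM in controls. The SE mice were again all above the controls. Its log2 fold change was 1.40 ± 0.17 (adjusted p = 0.0384), about 2.64-fold, and the within-batch log2 ratios were 1.55 and 1.33.

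At 8 h Adamts1 had 27.2 and 35.6 CPM after SE, against 23.7, 17.7 and 15.3 CPM in controls. The groups did not overlap and the log2 fold change was 0.72 ± 0.24, which did not pass (adjusted p = 0.494). It passed with batch as a covariate (0.93, adjusted p = 0.0106) and without control replicate 1 (0.93, adjusted p = 0.0134), the control that belongs to another batch than the other 4 libraries of 8 h. Those fits are nearly the same, since the batch term at 8 h is fitted to that control alone. They called many genes, 2111 of 15610 and 2065 of 15369, where the reported fit called 0. The later SE mice had 26.0, 26.3 and 16.4 CPM at 36 h and 25.8, 17.4 and 25.8 CPM at 120 h, against 24.1, 20.5 and 18.7 CPM in controls. The controls of 1 h were themselves above the highest control of the other times. In batch G511, which holds a control of both times, the control of 1 h had 40.5 CPM and that of 8 h 23.7 CPM.

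The calls of Thbs1 and Adamts1 at 1 h depended on single libraries, and that of Cyr61 did not. Without control replicate 1 their adjusted p values were 0.163 and 0.117, without control replicate 2 they were 0.0506 and 0.0546, and without SE replicate 2 they were 0.190 and 0.253. Without SE replicate 3 Thbs1 still passed (0.0386) and Adamts1 did not (0.0834). When the choroid plexus score entered the fit, the log2 fold changes were 1.79 and 1.42 and the adjusted p values 0.209 and 0.225, while Cyr61 passed (4.30, adjusted p = 0.0047). The summed level of all 17 choroid plexus markers was 3665 to 5913 CPM in the SE libraries of 1 h, against 2796 to 3386 CPM in the controls, and none of the markers was at 0. The 12 endothelial markers summed to 197 to 256 CPM after SE and 210 to 223 CPM in controls of that time. The 12 markers of leptomeninges and fibroblasts summed to 194 to 206 CPM after SE and 157 to 181 CPM in controls, without overlap. Of these, 10 had positive and 2 negative log2 fold changes at 1 h. The part of leptomeninges in the 1-h values of the genes was not tested. In tissue RNA, fewer cells of a type and less RNA per cell cannot be told apart.

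Ctgf, the other CCN gene of the set, encodes a cofactor of TGF-beta signalling (ENSMUSG00000019997, chromosome 10 from 24315248 to 24318489, plus strand). At 1 h Ctgf had 24.4, 29.0 and 30.1 CPM after SE, against 19.6 and 10.5 CPM in controls. The groups did not overlap, but the controls were far apart, and the log2 fold change of 0.89 ± 0.26 did not pass (adjusted p = 0.932). Without the filter on low counts Ctgf passed at 1 h, with a log2 fold change of 0.88 (adjusted p = 0.0026). That fit called 328 of 24265 genes, against 13 of 16264 with the filter. In all, 5 of the 10 genes at 1 h had every SE mouse above every control (Cyr61, Thbs1, Adamts1, Ctgf and Spp1), where 9.91% of all genes did, and 0 had every SE mouse below, where 8.55% did.

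At the later times Ctgf varied widely within each group. It had 28.1 and 21.1 CPM at 8 h after SE, against 31.1, 19.4 and 17.1 CPM in controls. Levels after SE were 9.81, 15.1 and 28.0 CPM at 36 h and 9.54, 13.9 and 6.97 CPM at 120 h, against 14.7, 14.8 and 5.50 CPM in controls. None of these groups separated, and the log2 fold changes were 0.10 ± 0.28, 0.62 ± 0.42 and -0.18 ± 0.36. A lincRNA on the other strand, Gm15270, overlaps Ctgf and had 164 counts over all 19 libraries.

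Among the other thrombospondins, Thbs4 (ENSMUSG00000021702, chromosome 13 from 93521545 to 93564773, minus strand) encodes a pentameric glycoprotein of the matrix. At 8 h it had 14.6 and 11.2 CPM after SE, against 23.1, 24.9 and 29.1 CPM in controls. Both SE mice lay well below all 3 controls. The log2 fold change was -1.02 ± 0.22 and did not pass the quasi-likelihood test (adjusted p = 0.409). It passed by the likelihood ratio test (-1.02, adjusted p = 0.02), by DESeq2 (-1.03, adjusted p = 0.0187), with batch as a covariate (-1.10, adjusted p = 0.0057) and without control replicate 1 (-1.10, adjusted p = 0.0073). In that order, these fits called 89, 95 and 2111 of 15610 genes and 2065 of 15369, where the reported fit called 0. The fit with batch and that without control replicate 1 are nearly the same, since that control is the only library of its batch at 8 h.

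At 1 h Thbs4 had 28.5, 20.4 and 18.5 CPM after SE and 28.6 and 17.8 CPM in controls, which overlap almost wholly. After SE it had 16.7, 13.1 and 15.4 CPM at 36 h and 15.2, 31.0 and 12.5 CPM at 120 h, against 9.37, 11.1 and 23.5 CPM in controls. One library in each of the last groups stood apart, SE replicate 2 of 120 h and control replicate 3, and the log2 fold changes were 0.06 ± 0.30 and 0.44 ± 0.40.

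Thbs2 (ENSMUSG00000023885, chromosome 17 from 14802507 to 14831269, minus strand) encodes thrombospondin 2, an inhibitor of angiogenesis. In the 36-h mice it had 7.27, 8.20 and 6.47 CPM after SE, against 5.49, 3.98 and 4.70 CPM in controls. The groups did not overlap, and the log2 fold change of 0.64 ± 0.19 did not pass (adjusted p = 0.409). At 1 h it had 11.3, 5.33 and 7.52 CPM after SE and 5.46 and 7.13 CPM in controls. At 8 h it had 5.17 and 6.00 CPM after SE and 4.79, 6.90 and 3.72 CPM in controls, and at 120 h 4.77, 4.98 and 6.77 CPM after SE. These 3 comparisons overlapped, with log2 fold changes of 0.35 ± 0.33, 0.12 ± 0.34 and 0.22 ± 0.20.

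Tnc had estimates of opposite sign at 8 h and 36 h. It encodes tenascin C, a hexameric matrix glycoprotein of development and wound repair (ENSMUSG00000028364, chromosome 4 from 63620819 to 63681760, minus strand). At 8 h it had 5.64 and 5.90 CPM after SE, against 11.5, 9.41 and 7.24 CPM in controls. By 36 h Tnc had 18.6, 20.9 and 21.1 CPM after SE, against 13.0, 15.3 and 12.8 CPM in controls. Both SE mice of 8 h were below their controls and all 3 SE mice of 36 h above theirs. The log2 fold changes were -0.71 ± 0.29 (adjusted p = 0.505) and 0.58 ± 0.12 (adjusted p = 0.302), so neither passed.

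The difference between these effects of Tnc, 36 h minus 8 h, was 1.26 ± 0.33 (adjusted p = 0.118), in a contrast where 0.144% of all genes were called and 0 of the 10. By the likelihood ratio test it passed (adjusted p = 0.0387), as it did without control replicate 1 of 8 h (adjusted p = 0.0419). Over all genes those fits called 198 of 17415 and 1976 of 17388, against 25 of 17415 as reported. At 36 h alone Tnc passed by the likelihood ratio test (0.58, adjusted p = 0.0178), by DESeq2 (0.57, adjusted p = 0.0285) and without SE replicate 3 (0.55, adjusted p = 0.0454). In that order, these fits called 125 and 101 of 15850 genes and 469 of 16171, where the reported fit called 4. At 1 h Tnc had 13.2, 16.0 and 11.7 CPM after SE and 9.85 and 17.1 CPM in controls, and at 120 h 13.6, 9.21 and 13.7 CPM after SE. Both of those comparisons overlapped (0.02 ± 0.26 and -0.17 ± 0.16). The antisense lincRNA 8030451A03Rik, which overlaps Tnc, had 22 counts over all libraries.

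Spp1 encodes osteopontin, a ligand of CD44 and of integrins that macrophages and microglia secrete in injury (ENSMUSG00000029304, chromosome 5 from 104864137 to 104870069, plus strand). At 1 h it had 8.22, 12.1 and 17.4 CPM after SE, against 7.78 and 6.82 CPM in controls. At 36 h it had 10.5, 9.0 and 8.53 CPM after SE, against 7.80, 4.11 and 3.50 CPM in controls. The groups did not overlap at either time, but the gap at 1 h was narrow, and the log2 fold changes of 0.78 ± 0.31 (adjusted p = 0.999) and 0.87 ± 0.28 (adjusted p = 0.46) did not pass.

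At 8 h Spp1 had 10.6 and 14.4 CPM after SE and 12.4, 9.32 and 7.53 CPM in controls, and at 120 h 2.80, 5.10 and 4.47 CPM after SE. These overlapped with their controls (0.35 ± 0.28 and -0.31 ± 0.33). Between the SE mice of 120 h and those of 36 h, whose shared controls cancel, the contrast was -1.18 ± 0.31 (adjusted p = 0.388), and it passed without the filter on low counts (-1.17, adjusted p = 0.00041). With the filter, no gene of the 10 was called in that contrast, where 0.0804% of all genes were. Without the filter, 155 of 27279 genes were called.

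**Figure D3:**
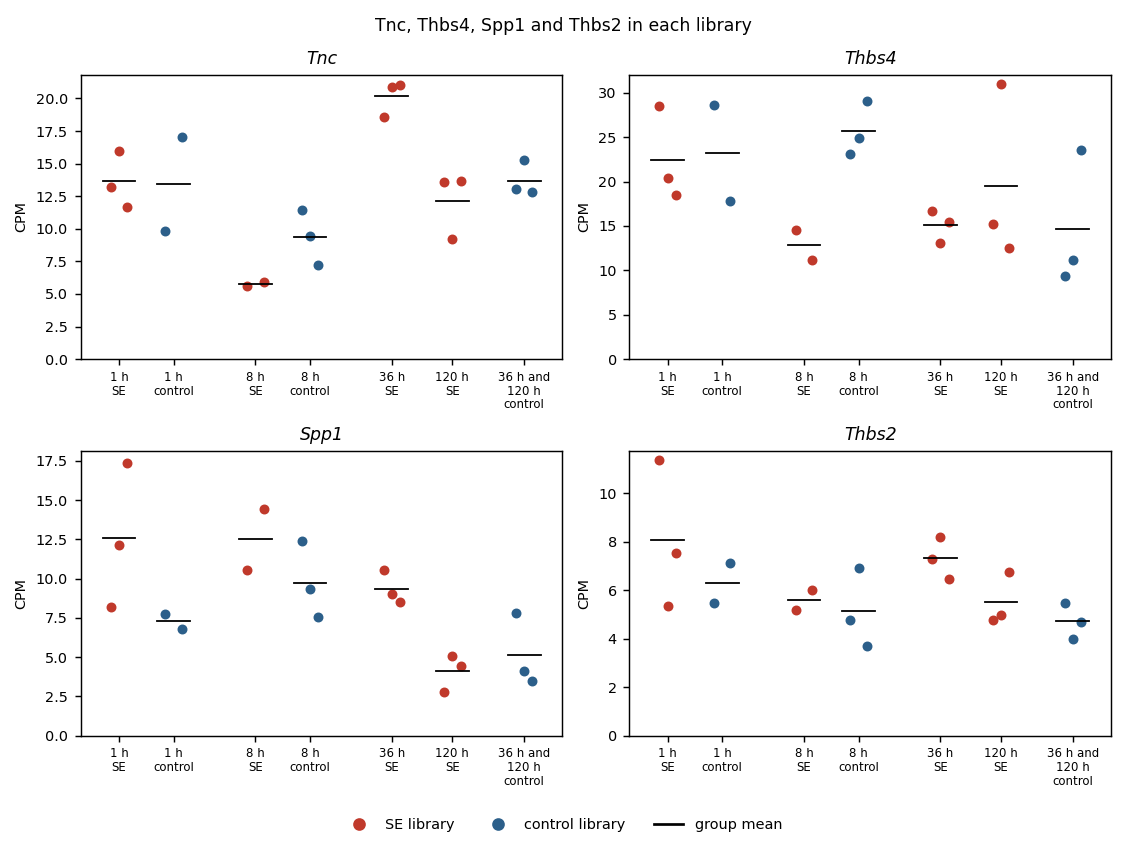
CPM of Tnc, Thbs4, Spp1 and Thbs2 in each library, on linear axes from 0, with SE libraries in red, control libraries in blue and group means as bars. At 8 h both SE libraries lie below the controls for Tnc (5.64 and 5.90 against 7.24 to 11.5 CPM) and Thbs4, and at 36 h all SE libraries lie above the controls for Tnc (18.6 to 21.1 against 12.8 to 15.3 CPM), Spp1 and Thbs2.

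At 8 h, 3 of the 10 genes had both SE mice above all controls (Cyr61, Thbs1 and Adamts1), where 14.6% of all genes did, and 3 had both below (Thbs4, Tnc and Sparcl1), where 13.4% did. At 36 h, 3 had all SE mice above all controls (Tnc, Spp1 and Thbs2) and 0 below, where 6.0% and 8.28% of all genes did so. At 120 h no gene of the 10 separated, where 15.4% of all genes did.

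The level of other tissue moved with the groups at 36 h. The summed choroid plexus markers were 64.1 to 7342 CPM after SE, against 63.5 to 135 CPM in controls, and the 12 markers of leptomeninges and fibroblasts summed to 156 to 239 CPM, against 56.2 to 147 CPM, with none of either list at 0. The 8 markers of monocytes and macrophages summed to 6.70 to 12.2 CPM after SE and 3.50 to 7.32 CPM in controls, and 12 microglial markers to 477 to 539 CPM and 436 to 482 CPM. With SE replicate 3 alone, whose choroid plexus score was as low as that of the controls, the log2 fold changes at 36 h were 0.62 ± 0.16 for Tnc, 0.71 ± 0.38 for Spp1 and 0.44 ± 0.24 for Thbs2, and for Thbs1 -0.07 ± 0.43. The part of the leptomeninges in these values was not tested. At 8 h the choroid plexus sum was 3400 to 3480 CPM after SE and 494 to 4098 CPM in controls. The leptomeningeal sum was 137 to 146 CPM after SE and 166 to 208 CPM in controls of that time. The 11 markers of pericytes and smooth muscle summed to 225 to 234 CPM and 286 to 326 CPM. The part of leptomeninges, pericytes and smooth muscle in the lower Thbs4 and Tnc values was not tested.

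Sparc and Sparcl1 were the most abundant of the set, and neither passed the test at any time. Sparcl1, or hevin, promotes the formation of excitatory synapses (ENSMUSG00000029309, chromosome 5 from 104508130 to 104543107, minus strand). At 8 h it had 1271 and 1312 CPM after SE, against 1777, 1566 and 1503 CPM in controls. Both SE mice were lower than each control, with a log2 fold change of -0.33 ± 0.15 that did not pass (adjusted p = 0.529). At 1 h it had 1901, 1685 and 1874 CPM after SE and 1809 and 1818 CPM in controls. Levels after SE were 1500.1, 1512 and 1730 CPM at 36 h and 1848, 1668 and 1704 CPM at 120 h, against 1606, 1941 and 1750.1 CPM in controls. These groups overlapped, and the log2 fold changes were 0.00 ± 0.08, -0.14 ± 0.11 and -0.01 ± 0.08.

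Sparc encodes a collagen-binding protein that opposes hevin at synapses (ENSMUSG00000018593, chromosome 11 from 55208002 to 55233582, minus strand). It averaged 251 ± 28.4 CPM after SE (SD, n = 3) and 250.5 ± 12.9 CPM in controls (n = 2) at 1 h, and 260.2 ± 12.7 CPM (n = 2) and 294 ± 45.0 CPM (n = 3) at 8 h. At 36 h it averaged 380 ± 19.9 CPM and at 120 h 332 ± 54.7 CPM after SE, against 343 ± 33.6 CPM in the controls (n = 3 each). SE and control mice overlapped at all 4 times and no log2 fold change was further from 0 than -0.19 ± 0.17, that of 8 h.

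**Figure D4:**
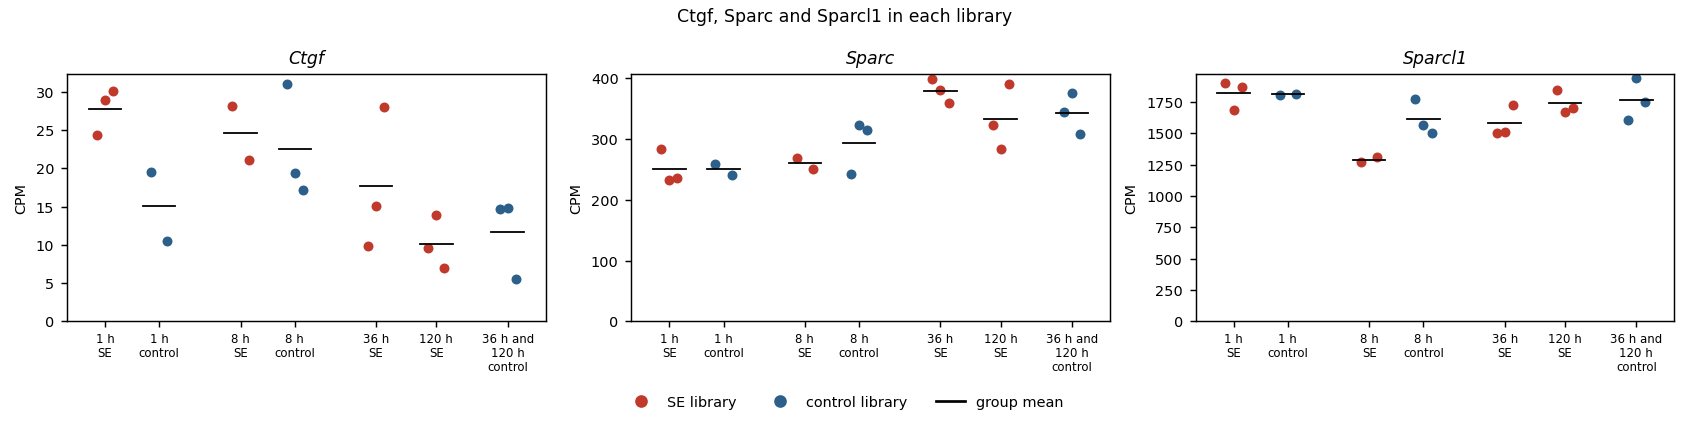
CPM of Ctgf, Sparc and Sparcl1 in each library, on linear axes from 0, with SE libraries in red, control libraries in blue and group means as bars. Sparcl1 at 8 h (1271 and 1312 CPM after SE against 1503 to 1777 CPM) and Ctgf at 1 h (24.4 to 30.1 CPM after SE against 10.5 and 19.6 CPM) are the comparisons without overlap.

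Levels of the genes were compared per kilobase of exon in the 8 control libraries, with the lowest, median and highest given. Sparcl1 stood highest (483, 566 and 623 CPM per kilobase) and Sparc next (71.7, 92.7 and 112 CPM per kilobase), without overlap with any other gene. Thbs4 (2.85, 7.08 and 8.86), Ctgf (2.21, 6.41 and 12.5), Spp1 (2.12, 4.64 and 7.52) and Adamts1 (2.88, 4.17 and 7.63 CPM per kilobase) overlapped each other. Cyr61 (0.820, 1.64 and 3.07), Tnc (0.964, 1.62 and 2.27), Thbs2 (0.627, 0.864 and 1.20) and Thbs1 (0.280, 0.664 and 0.940 CPM per kilobase) were lowest and likewise not separated from their neighbours. At 1 h after SE Cyr61 averaged 30.9 ± 3.15 CPM per kilobase (SD, n = 3), above the highest control value of every gene but Sparc and Sparcl1.

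**Figure D5:**
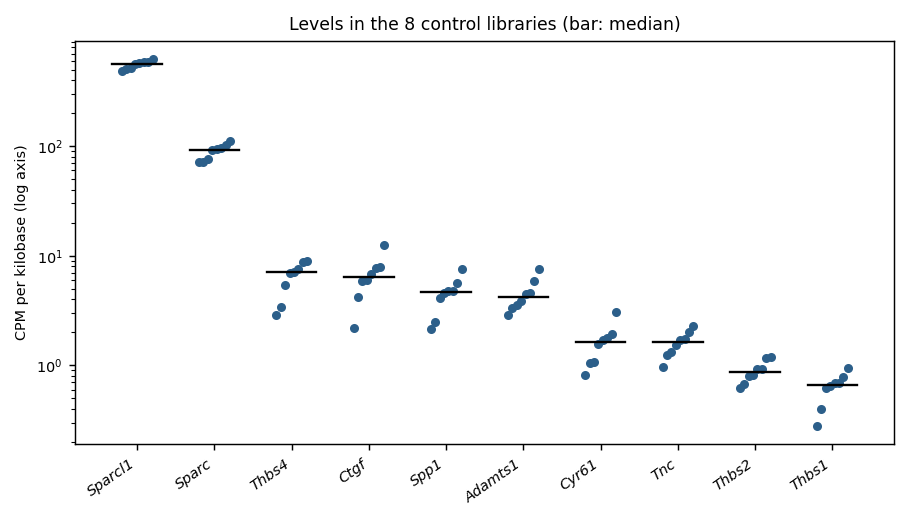
Level of each gene in the 8 control libraries, as CPM per kilobase of exon on a log axis, each point being 1 library and the bar the median. Sparcl1 (median 566) and Sparc (92.7) stand apart from the other 8 genes, whose medians lie between 0.664 and 7.08 CPM per kilobase.

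The log2 levels of Cyr61, Thbs1 and Adamts1 ran together over the 19 libraries. As a description of these libraries, which share times and batches, Pearson's r was 0.881 for Thbs1 with Adamts1, 0.875 for Cyr61 with Adamts1 and 0.813 for Cyr61 with Thbs1. These genes were singled out by their rise in the SE libraries of 1 h, which are among the 19. A high r follows in part from that choice and is no separate evidence, and the same libraries enter the likeness to other genes below. The lowest r among the 10 genes was -0.564, for Adamts1 with Sparc. Among all 17415 genes kept, those most like Cyr61 were Apold1 (r = 0.956), Fos (0.943) and Atf3 (0.931), and those most like Thbs1 were Sik1 (0.921), Klf4 (0.909) and Wdr78 (0.899). Adamts1 was most like Spty2d1 (0.948), Dnajc3 (0.931) and Apold1 (0.909). Fos and Atf3 encode transcription factors of the early response and Apold1 is an early response gene of endothelium.

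The families and partners of these genes were examined as lists. The median log2 fold change of the 10 genes was 0.57, 0.11, 0.38 and -0.01 in the order of the 4 times, where that of all genes lay between -0.01 and 0.01. Of the other CCN, thrombospondin, SPARC, tenascin and ADAMTS genes, and of the further matricellular genes listed with Spp1, none passed at any time. Thbs3, another thrombospondin, had a log2 fold change of 0.25 ± 0.17 at 1 h, against 1.89 ± 0.21 for Thbs1, and of the 15 ADAMTS genes tested at 1 h only Adamts1 passed. Nov, the CCN gene Ccn3, had -0.25 ± 0.14 at 1 h, where Cyr61 had 4.16 ± 0.18. Wisp2, or Ccn5, had 2.93 ± 1.03 at 8 h (adjusted p = 0.495), on levels of 1.45 to 2.82 CPM after SE and 0 to 0.746 CPM in controls.

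Periostin (Postn) and Tgfbi, which are related matrix proteins, had log2 fold changes of 1.16 ± 0.31 (adjusted p = 0.347) and 0.76 ± 0.31 (adjusted p = 0.482) at 120 h. At 36 h Tgfbi had 1.45 ± 0.42 (adjusted p = 0.41). Neither gene passed.

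The 24 receptors of these proteins, which include integrins, Cd44, Cd47 and the thrombospondin receptor Cacna2d1, were all tested and 0 passed at any time. At 36 h 20 of them had positive and 4 negative fold changes, and the median was 0.19. At 1 h, 8 h and 120 h 19, 13 and 10 of the 24 were positive. Cd44, the osteopontin receptor, had 6.91 ± 1.66 CPM after SE and 3.64 ± 1.19 CPM in controls at 36 h (SD, n = 3 each) and a log2 fold change of 0.95 ± 0.27 (adjusted p = 0.402). The syndecan Sdc4 had 77.9 ± 4.48 CPM after SE at 120 h and 54.8 ± 3.70 CPM in controls, 0.52 ± 0.07 on the log2 scale (adjusted p = 0.0608).

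Of the substrates of ADAMTS proteases and the TIMP inhibitors, 11 genes, 0 passed at any time. Timp1, an inhibitor of metalloproteases, had 2.27 to 4.81 CPM at 36 h after SE and 0 to 0.349 CPM in controls, a log2 fold change of 3.92 ± 0.57 that depends on the prior count (adjusted p = 0.11). At 1 h, when Adamts1 rose, Timp3 had 0.27 ± 0.12 and the substrate Ncan -0.17 ± 0.09 (adjusted p = 0.999 for both).

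The 3 pathways that are known to act on Cyr61, Ctgf or Thbs1 were examined likewise, and none of their genes passed at any time. Of 18 YAP and TEAD pathway genes tested at 1 h, 13 had positive and 5 negative fold changes, with a median of 0.05. At 8 h, 36 h and 120 h 11, 10 and 11 of them were positive. Yap1 itself had 0.53 ± 0.11 at 36 h (adjusted p = 0.302). Of 15 SRF and MRTF pathway genes at 1 h, 12 were positive and 3 negative, with a median of 0.20. Positive and negative genes of this list numbered 4 and 10 at 8 h (median -0.25), 10 and 5 at 36 h and 3 and 11 at 120 h. Acta2, the smooth muscle actin, had -1.09 ± 0.24 at 8 h (adjusted p = 0.41). Of 18 TGF-beta pathway genes, 16 were positive at 1 h and 15 at 8 h, with medians of 0.25 and 0.23. At 36 h 9 were positive and 9 negative, and at 120 h 8 were positive and 10 negative. These counts of signs were not tested.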

How the data were processed

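Each library is 1 mouse by the labels. The authors demultiplexed stranded poly(A) reads with bcl2fastq, trimmed with BBDuk and used HISAT2 2.1.0 for alignment to NCBIM37; HTSeq gave the raw gene counts that they deposited. Names, positions and exon lengths come from GENCODE M1 on NCBIM37, which may not be the annotation used for counting. Genes were filtered with filterByExpr, and counts were normalized by TMM and tested with glmQLFit and glmQLFTest of edgeR 4.0.16 in R 4.3.3 (two-sided, Benjamini-Hochberg over all genes tested, threshold 0.05). The effects of different times were compared in 1 model of 7 groups. The steps were tested on simulated counts. The text describes all 10 genes, the 3 genes most like each of the early ones and, of each list, those that passed and up to 2 with the smallest p. Of the genes named by this rule, 1 is not reported here. The genes and lists were chosen with earlier results of these data known. The alternatives were the likelihood ratio test that the study used, DESeq2 1.42.0, RLE normalization, no filter, all libraries in 1 fit, a replicate block, batch or a choroid plexus score as a covariate and leaving out each library. That score averages the log2 CPM (prior count 1) of 17 markers. Small RNA counts were not used here.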

Additional observations from a re-analysis of the deposited data

Results flagged for a closer look

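The SE effect on Cyr61 differed between 1 h and 8 h by the test of that difference. The contrast of 8 h minus 1 h was -3.295 on the log2 scale, with a standard error of 0.465 and an adjusted p of 0.0065 (edgeR's quasi-likelihood test over all 19 libraries). At 1 h, 3 of 3 SE mice stood above both controls (56.0 to 68.7 against 3.43 to 3.58 CPM), and at 8 h 2 of 2 SE mice stood above the 3 controls (3.29 and 3.91 against 1.66 to 2.18 CPM). Most libraries of the 2 times belong to different batches, so time and batch cannot be told apart in this contrast, although each time was set against its own controls.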

How the results depend on the processing

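Of the 990 values that the alternatives gave for the changes of the 10 genes, 934 stayed on their side of the threshold and either kept their direction or belong to estimates within 1 standard error of 0, 20 passed where the reported value did not, 10 no longer passed and 20 estimates near 0 moved by more than 1 standard error. Values without an adjusted p, those of DESeq2 for Cyr61, Thbs1, Thbs2 and Spp1 at 120 h, were counted as not passing. Another sign appeared in 64, of which 58 belong to estimates within 1 standard error of 0. The other 6 were Thbs2 at 1 h with the choroid plexus covariate (-0.028), Thbs1 at 36 h with it (-0.009) or with SE replicate 3 alone (-0.071, chosen after seeing the data), and, where leaving out single libraries gave the ranges that follow, Thbs4 at 120 h (-0.077 to 0.96, lowest without SE replicate 2), Tnc at 120 h (-0.271 to 0.005, highest without SE replicate 2) and Thbs4 at 120 h minus 36 h (-0.124 to 0.618, lowest without SE replicate 2 of 120 h). The cause was not tested.

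At 1 h the 3 calls became 1 (Cyr61) with the choroid plexus covariate and 4 (with Ctgf) without a filter, and lay between 1 and 3 when 1 library was left out (1 without control replicate 1, control replicate 2 or SE replicate 2). At 8 h the 0 calls became 1 (Thbs4) by the likelihood ratio test, DESeq2 or without a filter and 2 (with Adamts1) with batch as a covariate, and lay between 0 and 2 (without control replicate 1) on leaving out a library. At 36 h they became 1 (Tnc) by the likelihood ratio test and DESeq2, and lay between 0 and 1 (without SE replicate 3). Without a filter, 3 of the 10 genes were called for 8 h minus 1 h (Cyr61, Thbs1 and Thbs4), 2 for 36 h minus 8 h (Thbs4 and Tnc) and 3 for 120 h minus 36 h (Ctgf, Spp1 and Tnc). Over all 27279 genes tested without a filter, these contrasts called 480, 746 and 155, against 26, 25 and 14 of 17415 as reported. The likelihood ratio test called 1 of the 10 for 36 h minus 8 h (Tnc), and 198 of all 17415 genes. Leaving out a library gave 0 (without SE replicate 1 of 8 h) to 1 for 8 h minus 1 h and 0 to 1 (without control replicate 1 of 8 h) for 36 h minus 8 h.

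The replicate numbers of the labels did not pair the mice, since the deviations of same-numbered SE and control libraries correlated between -0.174 and 0.15. With a replicate block 3 of the 10 genes were called at 1 h, 0 at the later times and 1 (Cyr61) for 8 h minus 1 h, at -3.496. A group left with 1 library was assumed to vary like the other groups. Over all genes the calls, in the order of the 4 times, numbered 13, 0, 4 and 9 as reported; they were 69, 89, 125 and 76 by the likelihood ratio test, 63, 95, 101 and 144 by DESeq2, 328, 343, 141 and 52 without a filter, 55, 423, 10 and 0 with all libraries in 1 fit, 42, 31, 12 and 1 with the block and 2, 0, 42 and 2 with the choroid plexus covariate. Batch as a covariate gave 2111 at 8 h, and leaving out control replicate 1, which is nearly the same fit, gave 2065. DESeq2 gave no adjusted p for Cyr61, Thbs1, Thbs2 and Spp1 at 120 h. Depth limits genes with few counts, such as Thbs1 with 33 to 364 counts in a library. It also limits Cyr61 at 8 h, which had 31, 23 and 17 counts in the controls and 28 and 108 in the SE libraries.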
